A study of Mus musculus with 15 samples.

Results

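The 10 genes described here, Pecam1, Kdr, Flt1, Plvap, Esm1, Robo4, Tek, Angpt2, Vegfa and Tie1, mark endothelial cells or carry the signals by which blood vessels grow. They were followed across mouse choroid plexus and its tumours, out of 22180 genes with a probe set of their own. Each of the 10 was listed by name and kept if a probe set was paired with its symbol alone, and all 10 met that condition with 1 probe set each. Expression was measured on 15 single-channel Affymetrix arrays, 5 of normal choroid plexus, 5 of choroid plexus papilloma and 5 of choroid plexus carcinoma. All mice were of a mixed C57Bl/6 and 129 background and carried Myc/Myc alleles. Normal tissue came from mice that were Myc/Myc; p53fl/fl and had no Cre. Papillomas came from Atoh1-Cre; Myc/Myc mice, and carcinomas from Atoh1-Cre; Myc/Myc; p53fl/fl mice, so the floxed p53 alleles were shared by normal tissue and carcinoma and were not listed for papilloma. In both tumour models Cre was driven by Atoh1, a neural progenitor factor, and tumours were taken when the mice showed signs of disease. The labels used here give no ages.

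Vascular endothelial growth factor A, the product of Vegfa, binds the receptor kinases encoded by Kdr and Flt1 on endothelial cells and drives the sprouting of new capillaries. A further ligand and receptor system, angiopoietin and Tie, sets whether vessels stay quiet or remodel. Tek encodes its receptor, Tie1 a related receptor without a well-established ligand of its own, and Angpt2 a ligand that sprouting endothelium releases and that often opposes quiescence. Choroid plexus capillaries are fenestrated, unlike those of most of the brain, and Plvap builds the diaphragms of such fenestrae, while the epithelium above them is a known source of VEGF-A. Pecam1 encodes a junction protein of all endothelial cells, Robo4 a guidance receptor of endothelium and Esm1 a proteoglycan secreted by tip cells, the leading cells of a sprout.

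RefSeq promoter sequences (build GRCm38.p6) were at hand for 7 of the 10 genes, in 8 windows of 300 bases that run from 250 before a gene's start to 50 after it. The 4 printed here are those of Esm1 and Robo4, which rose clearly in both tumour types, of Flt1, which rose less, and of Kdr, whose differences did not pass the test. Capitals mark AGGAAG and GGAAGT on either strand, so that a match on the other strand reads as the reverse complement. They are letters that many binding sites of ETS factors contain, and they overlap where both occur in 1 run. ETS factors are the main transcription factors of endothelial genes.
Esm1 (chr13:113209409-113209708, + strand): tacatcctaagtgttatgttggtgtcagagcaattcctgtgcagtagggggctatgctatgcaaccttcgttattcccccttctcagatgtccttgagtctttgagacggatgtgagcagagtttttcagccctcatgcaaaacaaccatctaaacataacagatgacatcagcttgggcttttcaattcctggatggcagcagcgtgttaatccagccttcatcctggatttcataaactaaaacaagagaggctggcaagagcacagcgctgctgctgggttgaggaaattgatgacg
Robo4 (chr9:37401722-37402021, + strand): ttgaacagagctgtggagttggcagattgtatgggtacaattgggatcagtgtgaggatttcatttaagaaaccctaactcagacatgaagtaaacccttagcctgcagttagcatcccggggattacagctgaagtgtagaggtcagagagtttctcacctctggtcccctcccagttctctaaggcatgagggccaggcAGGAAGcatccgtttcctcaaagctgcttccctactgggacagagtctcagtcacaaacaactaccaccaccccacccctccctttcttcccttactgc
Flt1 (chr5:147725962-147726261, - strand): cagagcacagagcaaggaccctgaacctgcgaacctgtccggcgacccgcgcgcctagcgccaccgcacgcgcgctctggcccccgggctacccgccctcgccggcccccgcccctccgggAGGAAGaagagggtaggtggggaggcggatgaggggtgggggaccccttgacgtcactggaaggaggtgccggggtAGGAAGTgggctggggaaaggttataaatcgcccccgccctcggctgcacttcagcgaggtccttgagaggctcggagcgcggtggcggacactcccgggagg
Kdr (chr5:75978406-75978705, - strand): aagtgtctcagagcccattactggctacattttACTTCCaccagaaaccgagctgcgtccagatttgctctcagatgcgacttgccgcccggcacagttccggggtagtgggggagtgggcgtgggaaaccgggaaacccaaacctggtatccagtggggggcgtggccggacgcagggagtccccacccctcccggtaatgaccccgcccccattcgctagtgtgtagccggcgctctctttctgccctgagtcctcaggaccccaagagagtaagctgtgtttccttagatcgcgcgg
At least 1 of these ETS words was present in 5 of the 8 windows, against 45.8% of all 32851 windows of this length. The Esm1 window held neither, the Robo4 window held AGGAAG, the Flt1 window both, and only GGAAGT was found in that of Kdr. A form of the hypoxia response element's core that many E-boxes share, ACGTG, was found on either strand in 1 of the 8 windows, at a second start listed for Vegfa, against 19.6% of all windows. A match or its absence describes these letters and windows only.

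Values are log2 RMA summaries per probe set, so a difference of 1 is a doubling, and a value says nothing of 1 gene against another. The median probe set lay between 6.79 and 6.90 on each array. All 10 genes lay above that median on every array, apart from Esm1 on 3 normal arrays and Tek on 1, which lay at most 0.27 below it. Differences were tested with limma over all 22180 genes and called at a Benjamini-Hochberg adjusted p under 0.05. Defining genes of choroid plexus epithelium were high in all 15 arrays. Their mean over 10 genes was 13.06 to 13.12 in normal tissue, 12.57 to 12.84 in papillomas and 12.47 to 12.80 in carcinomas. Of the 10, 5 fell in each tumour type, where 19.2% of all genes fell in carcinoma and 16.3% in papilloma, and Cldn1 rose in carcinoma. Not every alternative fit kept the calls of Car12 in both, Kl and Cldn1 in carcinoma, or Folr1 and Clic6 in papilloma. Several libraries stood apart. Normal arrays 2 to 5 held Xist (10.69 to 12.48), a transcript of female cells, together with Y-linked Uty (7.98 to 10.44), while normal array 1 and every tumour array held 1 of them at such levels. Each result against normal tissue was therefore also fitted with normal array 1 alone. Papilloma array 2 had the highest mean of 10 mature neuron genes (9.28, where the papilloma median was 7.31, carcinomas lay at 6.98 to 7.58 and normal tissue at 8.09 to 8.57). Carcinoma array 4 had the highest mean of 11 macrophage genes (8.78, with a carcinoma median of 7.88). The sample titles call the arrays of a group biological replicates. They do not say whether a normal array held tissue of 1 mouse or several, so the normal spread may not be that between single mice. In bulk tissue, more endothelial cells and more RNA of a gene per cell cannot be told apart. Nor do the values show which cells, endothelial or other, made a transcript.

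In carcinoma 8 of the 10 genes rose and 0 fell, where 18.7% of all genes were called higher and 19.2% lower. In papilloma 7 rose and 0 fell, where 17.0% of all genes were called higher and 16.3% lower. All 5 tumours lay above all 5 normal arrays for 7 of the 10 genes in carcinoma (14.6% of all genes) and for 6 in papilloma (16.3%). Esm1 rose most in both tumour types, followed by Angpt2. Kdr and Tek, the main signalling receptors of the VEGF and angiopoietin systems, were not called in either. Vegfa rose in carcinoma and was not called in papilloma. The median difference of the 10 genes was 0.75 in carcinoma and 0.47 in papilloma, beside medians of -0.02 and 0.01 over all genes. With normal array 1 as the sole normal sample, whose spread is then assumed to equal that of the tumours, 4 genes were called in each tumour type, namely Esm1, Angpt2, Plvap and Robo4. The tumour types share their normal controls.

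**Figure D1:**
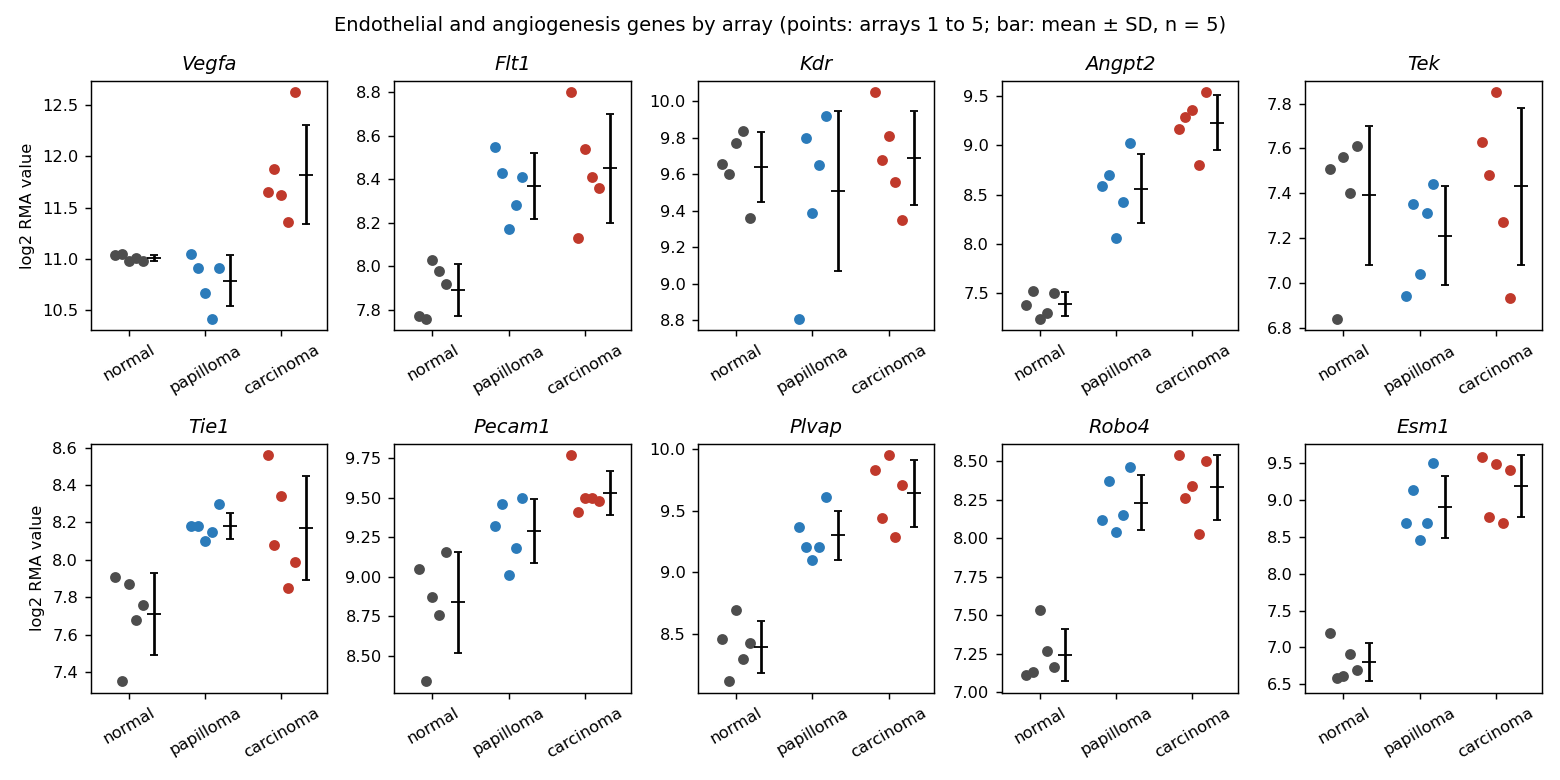
Each panel plots the log2 RMA value (vertical axis) of 1 gene in the 5 normal, 5 papilloma and 5 carcinoma arrays, with the group mean ± SD as a bar. Esm1, Angpt2, Plvap, Robo4 and, by a smaller gap, Flt1 separate all tumour arrays from all normal arrays. Vegfa separates the carcinomas from the rest, and Kdr and Tek overlap in all 3 groups.

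Vegfa was the only ligand of the VEGF family among the 10. It measured 11.04, 11.05, 10.98, 11.01 and 10.98 in normal arrays 1 to 5, 11.05, 10.91, 10.67, 10.42 and 10.91 in the papillomas, and 11.65, 11.87, 11.62, 11.36 and 12.62 in the carcinomas. The 5 normal arrays nearly coincided (SD 0.03), every carcinoma exceeded every other array, and carcinoma 5 stood well above the other carcinomas. Vegfa was 1.76-fold higher in carcinoma than in normal tissue (log2 difference 0.81, SE 0.18, limma adjusted p = 0.00188). In papilloma it measured 0.22 below normal (log2 difference -0.22, SE 0.18, adjusted p = 0.417), with a 95% interval of -0.60 to 0.17. Carcinoma exceeded papilloma by 1.03 (SE 0.18, adjusted p = 0.00167), which is 2.04-fold. Without carcinoma 5 the difference from normal tissue was 0.61 (adjusted p = 0.000822) and that from papilloma 0.83 (adjusted p = 0.000455). Against normal array 1 alone, the rise in carcinoma was 0.79 (adjusted p = 0.187).

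Of the VEGF receptor genes, Flt1 rose in both tumour types and Kdr was not called in either. Flt1, whose receptor binds VEGF-A tightly and signals weakly, spanned 7.76 to 8.03 among normal arrays, 8.17 to 8.55 among papillomas and 8.13 to 8.80 among carcinomas. Every tumour array exceeded every normal array, and the tumour types overlapped. The rise of Flt1 was 1.47-fold in carcinoma (log2 difference 0.56, SE 0.11, adjusted p = 0.000779) and 1.39-fold in papilloma (0.48, SE 0.11, adjusted p = 0.00309). Kdr, the main signalling receptor, measured 9.66, 9.60, 9.77, 9.84 and 9.36 in normal arrays 1 to 5, 8.81, 9.80, 9.39, 9.65 and 9.92 in the papillomas, and 10.05, 9.68, 9.81, 9.56 and 9.35 in the carcinomas. The 3 groups overlapped throughout, with papilloma 1 lowest of all 15 arrays. The difference of Kdr from normal tissue was 0.05 in carcinoma (SE 0.18, adjusted p = 0.874, 95% interval -0.34 to 0.44) and -0.13 in papilloma (SE 0.18, adjusted p = 0.657, interval -0.52 to 0.26). These intervals do not show that Kdr was equal in the groups. Against normal array 1 alone the Flt1 differences were larger, 0.68 and 0.60, and were not called (adjusted p = 0.0523 and 0.0964).

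Among the angiopoietin and Tie genes the ligand rose and its receptor did not pass the test. Angpt2 measured 7.38, 7.52, 7.24, 7.30 and 7.50 in normal arrays 1 to 5, 8.59, 8.70, 8.06, 8.43 and 9.02 in the papillomas, and 9.17, 9.29, 9.36, 8.80 and 9.54 in the carcinomas. All tumours lay above all normal arrays, and papilloma 5 exceeded carcinoma 4. The rise was 3.59-fold in carcinoma (log2 difference 1.84, SE 0.16, adjusted p = 1.46e-07) and 2.25-fold in papilloma (1.17, SE 0.16, adjusted p = 2.23e-05). Angpt2 differed between the tumour types by 0.67 (SE 0.16, adjusted p = 0.011), higher in carcinoma. That call was lost when the fit held only these groups (adjusted p = 0.0514).

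Tek measured 7.51, 6.84, 7.56, 7.40 and 7.61 in the normal arrays, 6.94, 7.35, 7.04, 7.31 and 7.44 in the papillomas, and 7.63, 7.48, 7.85, 7.27 and 6.93 in the carcinomas. No group stood apart, and normal array 2 was the lowest of all. Its differences from normal tissue were 0.04 in carcinoma (SE 0.17, adjusted p = 0.878, interval -0.33 to 0.41) and -0.17 in papilloma (SE 0.17, adjusted p = 0.524, interval -0.54 to 0.20). Tie1 rose by a modest and similar amount in both, 0.45 in carcinoma (SE 0.13, adjusted p = 0.0102) and 0.47 in papilloma (SE 0.13, adjusted p = 0.00957). Tie1 ranged from 7.35 to 7.91 in the normal arrays, while papillomas spanned 8.10 to 8.30 and carcinomas 7.85 to 8.56, so that carcinoma 4 overlapped normal tissue and no papilloma did. Tie1 was not called against normal array 1 alone (0.25 and 0.27, adjusted p = 0.499 and 0.518).

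Pecam1 rose least of the structural and surface genes. It measured 9.05, 8.34, 8.87, 8.76 and 9.16 in the normal arrays, 9.32, 9.46, 9.01, 9.18 and 9.50 in the papillomas, and 9.77, 9.41, 9.50, 9.50 and 9.48 in the carcinomas. All carcinomas exceeded all normal arrays, while papilloma 3 fell among the normal values. The difference was 0.69 (SE 0.14, adjusted p = 0.000795, 1.62-fold) in carcinoma and 0.45 (SE 0.14, adjusted p = 0.0182, 1.37-fold) in papilloma. The papilloma call of Pecam1 was lost without papilloma 5 (0.40, adjusted p = 0.0502), and neither call held against normal array 1 alone (0.48 and 0.24, adjusted p = 0.12 and 0.508).

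Plvap, the fenestral diaphragm gene, rose further. Its values were 8.46, 8.12, 8.70, 8.30 and 8.43 in normal arrays, 9.37, 9.21, 9.10, 9.21 and 9.61 in papillomas and 9.83, 9.44, 9.95, 9.29 and 9.71 in carcinomas. No tumour overlapped normal tissue. Plvap was 2.36-fold higher in carcinoma (log2 difference 1.24, SE 0.14, adjusted p = 2.27e-06) and 1.87-fold higher in papilloma (0.90, SE 0.14, adjusted p = 7.58e-05). Robo4 showed nearly equal rises, 1.10 in carcinoma (SE 0.11, adjusted p = 1.28e-06) and 0.99 in papilloma (SE 0.11, adjusted p = 4.62e-06). Normal arrays ran from 7.11 to 7.53, papillomas from 8.04 to 8.46 and carcinomas from 8.03 to 8.54, so the tumour types covered the same range.

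Esm1 measured 7.20, 6.59, 6.61, 6.91 and 6.69 in normal tissue, near or below the median of all probe sets. It reached 8.69, 9.14, 8.46, 8.69 and 9.50 in the papillomas and 9.59, 8.77, 9.49, 8.69 and 9.41 in the carcinomas. Every tumour lay more than 1 log2 unit above the highest normal array. The rise was 5.24-fold in carcinoma (log2 difference 2.39, SE 0.21, adjusted p = 2.56e-07) and 4.27-fold in papilloma (2.09, SE 0.21, adjusted p = 1.25e-06). RMA compresses differences of dim probe sets, so the fold of Esm1 may be understated. Carcinoma and papilloma differed by 0.30 (SE 0.21, adjusted p = 0.442, interval -0.16 to 0.75).

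**Figure D2:**
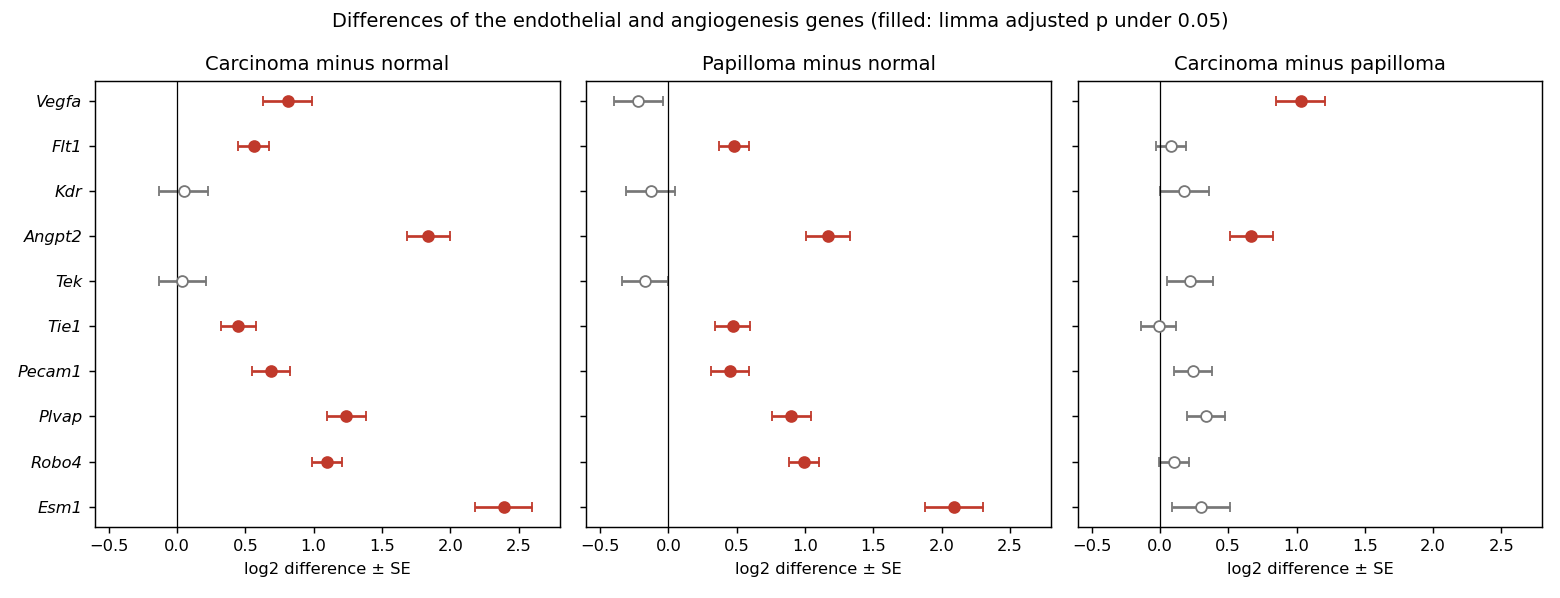
Each point is the log2 difference (horizontal axis) of 1 gene with its SE, in 3 panels: carcinoma against normal tissue, papilloma against normal tissue, and one tumour type against the other. Filled points passed the limma threshold: 8, 7 and 2 of the 10 genes, with Esm1 farthest right against normal tissue and Vegfa between the tumour types.

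Between carcinoma and papilloma, 2 of the 10 genes differed, Vegfa and Angpt2, both higher in carcinoma, against 6.24% of all genes called higher and 5.17% called lower. Only Vegfa had no overlap between the tumour types, as had 4.52% of all genes in that direction. For the other 8 genes the differences ran from -0.01 for Tie1 to 0.34 for Plvap. Plvap and Angpt2 lie on chromosome 8, whose 1036 genes had a median shift from normal of -0.23 to 0.01 in single carcinomas and -0.02 to 0.05 in papillomas. With the median shift of every autosome removed from each tumour array, Plvap differed between carcinoma and papilloma by 0.47 (adjusted p = 0.0353), where it had differed by 0.34 (adjusted p = 0.129). Leaving out carcinoma 4, which had the lowest Plvap value of its group, also gave a call (0.43, adjusted p = 0.0437).

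The tumours of a type ranked alike for several of the genes. Papilloma 5 had the highest value of its group for 8 of the 10 genes, all but Flt1 and Vegfa. Papilloma 3 had the lowest for 7, all but Kdr, Tek and Vegfa. Among carcinomas, array 1 was highest for 6 genes (Pecam1, Kdr, Flt1, Esm1, Robo4 and Tie1) and array 4 lowest for 6 (Plvap, Esm1, Robo4, Angpt2, Vegfa and Tie1). Carcinoma 5 combined the highest Vegfa and Angpt2 of its group with the lowest Kdr and Tek. In normal tissue array 2 was lowest for 6 genes, among them Pecam1, Tek and Tie1. These are ranks of 5 arrays each and carry no test.

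**Figure D3:**
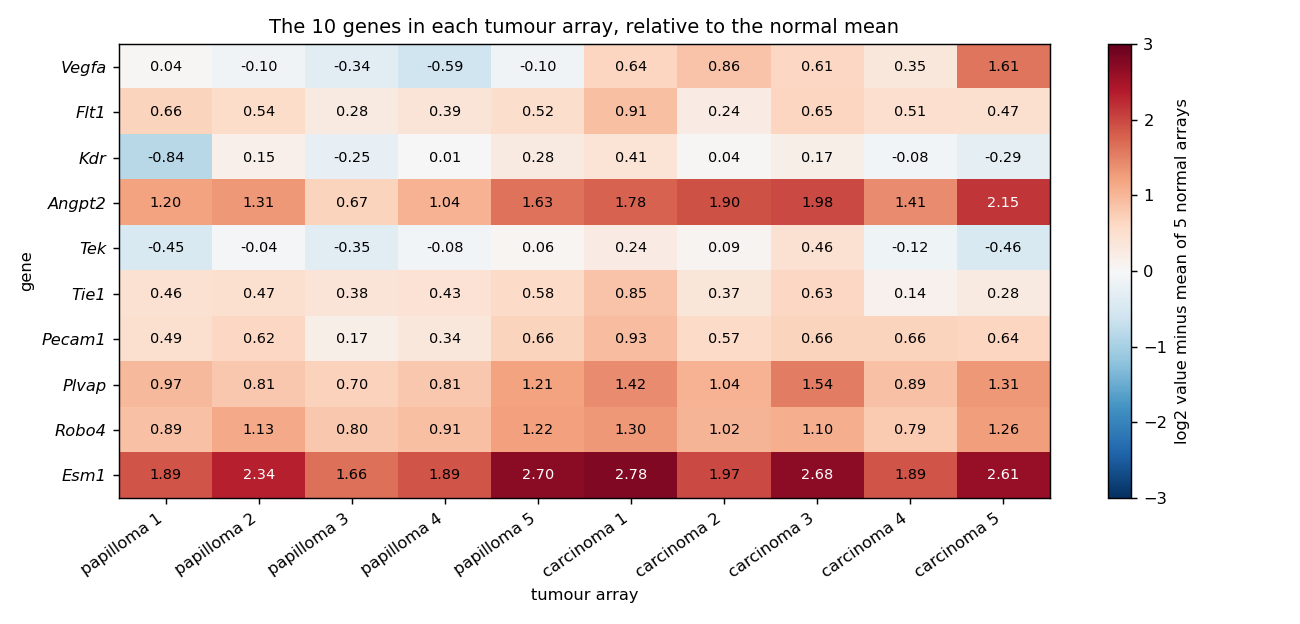
Each cell gives the log2 value of 1 gene (rows) in 1 tumour array (columns) minus the mean of the 5 normal arrays, with red for higher and blue for lower. Esm1 is between 1.66 and 2.78 in every tumour, Angpt2 is highest in carcinoma 5 (2.15), and Kdr and Tek vary around 0.

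To see how the genes moved against other endothelial transcripts, 27 further pan-endothelial genes were followed, such as the junction genes Cdh5 and Esam and the transcription factor gene Erg. Of these, 13 rose and 2 fell in carcinoma (all genes: 18.7% and 19.2%), with a median of 0.30. In papilloma 12 rose and 4 fell (all genes: 17.0% and 16.3%), with a median of 0.19. The largest rises were those of Cd93, an endothelial surface lectin (2.08 in carcinoma, SE 0.15, adjusted p = 2.07e-08, and 1.50 in papilloma, SE 0.15, adjusted p = 8.13e-07), and Cd34, a surface sialomucin of capillaries (1.69 and 0.95). Next came Sox18 in carcinoma (1.09) and Esam in papilloma (0.90). Gpr182, a receptor of sinusoidal and lymphatic endothelium, fell in both tumour types (-0.69 in carcinoma and -0.76 in papilloma), as did Calcrl, the adrenomedullin receptor (-0.58 and -0.98). With normal array 1 as the only normal sample, Sox18 in carcinoma was not called (adjusted p = 0.086). The mean of the 27 genes per array spanned 7.61 to 7.93 in normal samples, 7.86 to 8.18 in papillomas and 8.17 to 8.35 in carcinomas, so that carcinoma and normal tissue did not overlap.

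When that mean was subtracted from every gene of an array, Esm1, Angpt2, Plvap and Robo4 were still called higher in both tumour types. What remained of the rise of Esm1 was 1.97 in carcinoma (SE 0.18, adjusted p = 8.23e-08) and 1.88 in papilloma (SE 0.18, adjusted p = 2.29e-07). That of Angpt2 was 1.43 (adjusted p = 7.54e-07) and 0.96 (adjusted p = 0.000115). Pecam1 retained 0.28 in carcinoma (adjusted p = 0.0368) and 0.24 in papilloma (adjusted p = 0.108), and Flt1 and Tie1 were no longer called in either. Vegfa also lost its call in carcinoma (0.39, SE 0.20, adjusted p = 0.0758) and kept that between carcinoma and papilloma (0.83, SE 0.20, adjusted p = 0.00804). Since the epithelium is a source of VEGF-A, this endothelial mean does not correct Vegfa for the amount of its source. The change of Tek from normal tissue lay below that of the 27-gene mean in carcinoma (-0.37, SE 0.14, adjusted p = 0.0236) and in papilloma (-0.39, SE 0.14, adjusted p = 0.0381). For Kdr the same measure was -0.37 in carcinoma (SE 0.15, adjusted p = 0.0385) and was not called in papilloma (-0.35, adjusted p = 0.0877). Such a ratio within an array shows unequal change among these transcripts and does not say which of them changed.

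**Figure D4:**
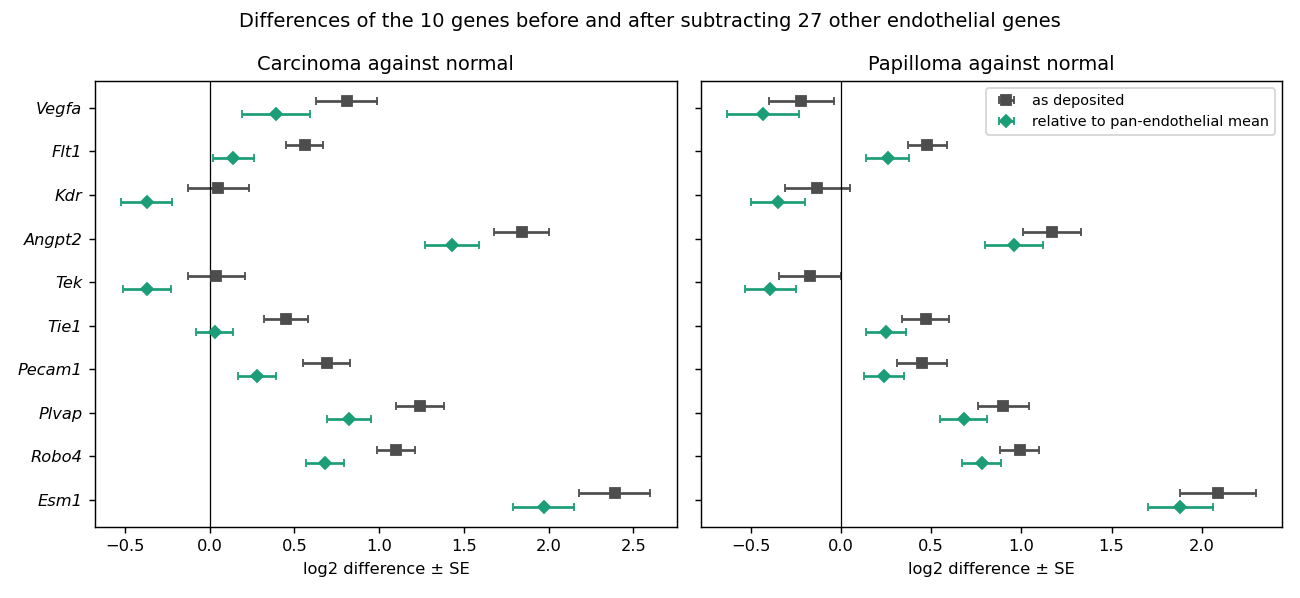
The log2 difference from normal tissue (horizontal axis, ± SE) is shown for each of the 10 genes as deposited (squares) and after subtracting each array's mean of 27 other endothelial genes (diamonds). Esm1, Angpt2, Plvap and Robo4 stay to the right of 0 by several SE in both tumour types. The diamonds of Kdr and Tek lie to the left of 0 in both, as their squares already did in papilloma.

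Genes of tip cells and sprouting, a list of 22, rose in 18 cases and fell in 2 in carcinoma (median 0.72, all genes: 18.7% and 19.2%). In papilloma 9 rose and 4 fell (median 0.34, all genes: 17.0% and 16.3%). Apln, the apelin ligand made by tip cells, went from 6.39 ± 0.17 in normal samples to 8.81 ± 0.47 in papillomas and 9.47 ± 0.54 in carcinomas (SD, n = 5 each), a rise of 2.42 (SE 0.24, limma adjusted p = 1.01e-06) and 3.08 (SE 0.24, limma adjusted p = 6.36e-08). Igfbp3, a secreted binding protein of insulin-like growth factors, rose by 1.52 in papilloma and 2.11 in carcinoma. Pdgfb, the pericyte-recruiting growth factor, fell in both (log2 differences -2.21 in papilloma and -1.07 in carcinoma). Adm, the vasoactive peptide adrenomedullin, rose in carcinoma (2.84, SE 0.49, adjusted p = 0.000213) and not by the test in papilloma (0.65, SE 0.49, adjusted p = 0.371). Its rise in carcinoma was not called against normal array 1 alone (adjusted p = 0.0777). Both Apln and Adm lay below the median of all probe sets on all 5 normal arrays, and Adm on 3 papilloma arrays too, so the sizes of their rises are as uncertain as that of Esm1. Lcp2, which stands on the list and is also an adaptor of blood cells, rose by 1.14 in papilloma.

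The other VEGF family genes went in different directions. Of 7 measured, 3 rose and 1 fell in carcinoma (all genes: 18.7% and 19.2%), and 2 rose and 1 fell in papilloma (17.0% and 16.3%). Vegfd, a ligand of the lymphatic receptor, was at 7.26 ± 0.14 in normal samples, 9.08 ± 0.41 in papillomas and 8.11 ± 0.36 in carcinomas (SD, n = 5 each). It thus rose more in papilloma (1.82) than in carcinoma (0.85), and the difference between the tumours was itself called (-0.97, SE 0.19, limma adjusted p = 0.00342), the opposite order to Vegfa. Pgf, placental growth factor, fell by 1.17 in papilloma (SE 0.16, adjusted p = 3.57e-05), where it lay below the median of all probe sets on all 5 arrays. Between the tumour types 2 of the 7 were higher in carcinoma (6.24% of all genes) and 1, Vegfd, was lower (5.17%). Those higher, in the same order as Vegfa, were the co-receptor gene Nrp2 (1.57, SE 0.30, adjusted p = 0.00312) and Pgf (0.85, SE 0.16, adjusted p = 0.00338). The co-receptor gene Nrp1 fell by 0.67 in carcinoma, Flt4 rose in both (0.51 in carcinoma and 0.45 in papilloma) and Nrp2 rose in carcinoma (0.85, adjusted p = 0.0359), a call lost when any 1 of 7 arrays was left out (normal 1, 2, 3 or 5, or carcinoma 3, 4 or 5). Fitted against normal array 1 alone, Nrp1 (adjusted p = 0.0708) and Vegfd (adjusted p = 0.071) in carcinoma and Flt4 in both (adjusted p = 0.0608 in carcinoma and 0.106 in papilloma) were not called. Of the other 5 angiopoietin and Tie genes none rose against normal tissue, where 18.7% of all genes rose in carcinoma and 17.0% in papilloma. In each tumour type 2 of them fell (all genes: 19.2% in carcinoma and 16.3% in papilloma). Angptl4 fell in both (-0.58 and -0.50) and Svep1 in carcinoma (-0.55). Not every alternative fit kept the calls of Svep1, or of Angptl4 in papilloma. Between the tumour types 1 of the 5, Angpt1, was higher in carcinoma (1.12, SE 0.21, adjusted p = 0.00237) and 0 were lower (all genes: 6.24% and 5.17%). Angpt1, the ligand that activates Tek, was called lower in papilloma (-1.01, SE 0.21, adjusted p = 0.00116) and not called in carcinoma (0.12, adjusted p = 0.711). Its probe set was dim, below the median of all probe sets on 14 of 15 arrays, so the size is uncertain. It ranged from -1.28 to -0.65 over the alternatives and was not called against normal array 1 alone (adjusted p = 0.0663).

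Of 12 measured genes that restrain vessel growth, 1 rose and 6 fell in carcinoma (all genes: 18.7% and 19.2%). In papilloma 1 rose and 7 fell (all genes: 17.0% and 16.3%). Sema3f, a repellent guidance ligand, fell in both tumour types (log2 differences -1.44 in carcinoma and -1.79 in papilloma). Serpinf1, which encodes pigment epithelium-derived factor, also fell (-0.90 and -0.73). Thbs1, thrombospondin 1, was the gene that rose, by 0.98 in carcinoma (SE 0.16, adjusted p = 0.000133) and 1.06 in papilloma (SE 0.16, adjusted p = 7.67e-05). Neither Thbs1 call held against normal array 1 alone (adjusted p = 0.0633 and 0.0562).

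Mural cells wrap vessels and were followed by 12 pericyte genes. In carcinoma 8 rose and 3 fell (all genes: 18.7% and 19.2%), and in papilloma 4 rose and 4 fell (17.0% and 16.3%). Rgs5 and Kcnj8, pericyte genes of brain capillaries, rose by 0.95 and 1.03 in carcinoma and by 0.52 and 0.70 in papilloma. With normal array 1 alone as control, Rgs5 was called in neither (adjusted p = 0.0757 in carcinoma, and 0.31 with adjusted p = 0.52 in papilloma) and Kcnj8 not in papilloma (adjusted p = 0.131). Mcam, which endothelium also expresses, rose by 2.11 and 1.54, and Anpep fell (-1.77 and -2.13). Smooth muscle genes rose in 6 of 8 cases in carcinoma, with a median of 0.86. In papilloma 1 of the 8, Acta2, rose (2.62, SE 0.26, adjusted p = 9.27e-07) and 2 fell.

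Other cells that express some of the 10 genes were checked by their markers. Their counts stand beside 18.7% of all genes called higher and 19.2% lower in carcinoma, and 17.0% and 16.3% in papilloma. Of 11 macrophage genes 1 rose in carcinoma, Cd68 (1.47, adjusted p = 0.000397, and 0.107 against normal array 1 alone), and 0 passed in papilloma by limma (Mrc1 had the smallest p, with a difference of -0.37 and an adjusted p of 0.0835) (array means 7.84 to 8.11 among normal samples, 7.80 to 7.91 among papillomas and 7.74 to 8.78 among carcinomas). Of 5 platelet and red cell genes none rose, and 2 fell in carcinoma and 1 in papilloma. Lymphatic genes changed in 2 of 7 cases in carcinoma and 3 of 7 in papilloma, Flt4 being the one that rose, and Prox1, the defining lymphatic factor, was not called (-0.09, adjusted p = 0.764, and 0.14, adjusted p = 0.647). Genes of blood-brain barrier endothelium split evenly, with 3 higher and 3 lower of 17 in carcinoma and 5 and 5 in papilloma. Several of these, such as Slc2a1 and Ocln, are also made by choroid plexus epithelium. Mature neuron genes, a list added with the values known, fell in 5 of 10 cases in carcinoma and 2 in papilloma. No listed gene was at 0 on this scale, and the part of these other cells in the differences of the 10 genes was not tested.

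**Figure D5:**
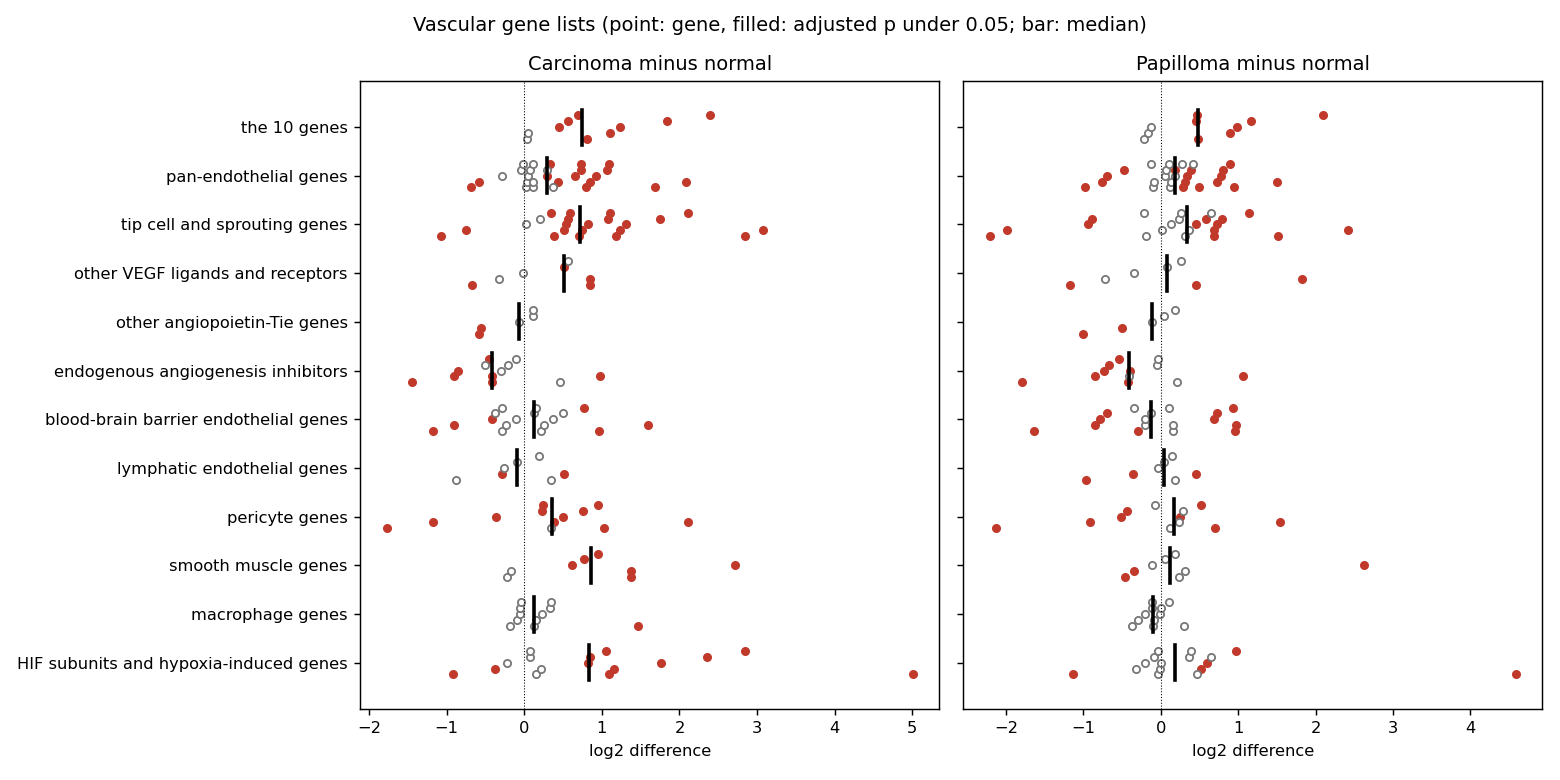
Each point is 1 gene of the list named on the vertical axis, placed by its log2 difference from normal tissue in carcinoma (left) and papilloma (right), filled where the adjusted p was under 0.05, with the list's median as a bar. The smooth muscle genes, the hypoxia genes, the 10 genes and the tip cell genes have medians of 0.86, 0.83, 0.75 and 0.72 in carcinoma, and the inhibitors lie mostly left of 0.

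Vegfa is induced by low oxygen, so 16 genes of hypoxia-inducible factors and their targets were set beside it. In carcinoma 9 rose and 2 fell (all genes: 18.7% and 19.2%), with a median of 0.83. In papilloma 4 rose and 1 fell (all genes: 17.0% and 16.3%), with a median of 0.19. Between carcinoma and papilloma 5 of the 16 were higher in carcinoma (6.24% of all genes) and 1 was lower (5.17%). The other 10 did not pass, among them Slc2a1, Pgk1, Ldha and Car9. Of the 5, Ndrg1 (2.45, SE 0.36, adjusted p = 0.000509) and Adm (2.20, SE 0.49, adjusted p = 0.00858) differed most. Egln3, a prolyl hydroxylase that hypoxia induces, rose in both tumour types (5.01 and 4.59), where Vegfa was called in carcinoma only. Of the factor genes, Epas1 fell in both (-0.91 in carcinoma and -1.13 in papilloma), and neither call held against normal array 1 alone (adjusted p = 0.244 and 0.151). Hif1a was lower in carcinoma than in papilloma (-0.35, SE 0.10, adjusted p = 0.0395), a call lost under most alternatives run, over which it ranged from -0.45 to -0.14 (adjusted p up to 0.452). Hif1a lies on chromosome 12, whose 748 genes had a median shift of -0.28 to -0.01 in single carcinomas. Carcinoma 5, the array with the highest Vegfa, also had the highest mean of these 16 genes (11.71). The lowest mean of the carcinomas was that of carcinoma 3 (10.58), while Vegfa was lowest in carcinoma 4. Whether low oxygen had a part in the Vegfa values was not tested.

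The genes whose 15 values lay closest to those of a given gene, after each was centred on its own mean, were found by root mean square difference in log2 units. For Pecam1 the nearest was Cdh5 (0.09), followed by Gimap6 (0.14), Eng (0.16), Hr (0.16) and Lsm11 (0.18). Plvap was nearest to Robo4 (0.17) and Esam (0.18), with Dph5, Sco1 and Mmrn2 next. For Vegfa they were Spidr (0.19), Jcad, Plod1, Snord123 and Ets1 (0.23). Esm1 was followed less closely, by Snord35a (0.33), Smyd2, Cdkn2c, Sox4 and Shmt2, none of which is on a vascular list used here.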

How the data were processed

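Total RNA of 15 mouse tissues was hybridised to Affymetrix arrays. The authors deposited log2 values per probe set made with RMA and Affymetrix Expression Console, per the submitters' processing notes, which give no versions. RMA forces arrays to a shared distribution and compresses dim differences. Of 41345 probe sets, 23521 were paired with exactly 1 gene symbol. The probe set with the highest mean stood for a gene, which left 22180 genes. With limma 3.58.1 in R 4.3.3, tested on simulated data, all arrays were fitted by group alone (12 residual degrees of freedom). Two-sided p-values were corrected over all genes by the Benjamini-Hochberg method. Arrays have no read depth, and 5 per group limits the precision. The mature neuron list was added after the values were seen. The 10 genes, the other lists and the alternatives were chosen with earlier results of these data known. All 10 genes are named. A rule picked further genes from each list in each comparison. It took up to 3 called genes with the largest change in the list's main direction and 1 in the other. Where none was called, it took 2 with the smallest p. Not every gene so picked is named above. Genes named beyond this rule, such as Cdh5, Erg, Slc2a1, Ocln and Prox1, were chosen with their values seen.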

Additional observations from a re-analysis of the deposited data

Results flagged for a closer look

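In 30 groups of 5 arrays, the highest or lowest array was compared with the rest, a check that chance alone passes in about 1 of 20 groups. Pecam1 in carcinoma array 1 was at 9.77, while the other 4 carcinomas lay between 9.41 and 9.50. Tek in normal array 2 was at 6.84, while the other normal arrays lay between 7.40 and 7.61. Normal array 2 also had the lowest mean of the 27 pan-endothelial genes (7.61). The change from normal tissue differed between carcinoma and papilloma for Angpt2, by 0.67 (limma adjusted p = 0.011), and for Vegfa, by 1.03 (limma adjusted p = 0.00167).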

How the results depend on the processing

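With normal array 1 as the sole normal sample, 4 of the 10 genes rose in carcinoma and 4 in papilloma, and the genes called over the whole table numbered 3550 and 2730. With only carcinoma and papilloma in the fit, 1 of the 10 genes and 1329 of all genes were called. The replicate block changed no call of the 10 genes (Angpt2 between carcinoma and papilloma: 0.67, adjusted p = 0.00576) and gave 8220, 7180 and 2268 calls over all genes. Same-numbered arrays shared only a number, with correlations of deviations from -0.096 to 0.136. Signs turned only for differences not called by the test reported above. Tek in carcinoma was at -0.08 against normal array 1, and Tie1 between carcinoma and papilloma at 0.15 with array quality weights. Relative to the pan-endothelial mean, Kdr and Tek in carcinoma were both called lower at -0.37, and between carcinoma and papilloma Kdr was at -0.02, Flt1 at -0.12 and Robo4 at -0.10. With 1 array left out at a time, Kdr ranged from -0.04 to 0.13 in carcinoma and from -0.23 to 0.05 in papilloma, Tek from -0.09 to 0.17 in carcinoma, and between the tumour types Flt1 from -0.01 to 0.16 and Tie1 from -0.11 to 0.06. The cause of these changes was not tested. Esm1, Angpt2, Plvap and Robo4 kept their calls against normal tissue under all alternatives run. The dim level of Esm1 in normal tissue limits its fold.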
